A study of Mus musculus with 8 samples.

Results

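Zinc finger protein genes, whose mouse symbols are Zfp followed by a number, code mostly for DNA-binding repressors and activators of transcription. Their peaks of N6-methyladenosine (m6A) in bone marrow-derived macrophages (BMDMs) came from MeRIP-Seq, in which RNA fragments are pulled down with an anti-m6A antibody and sequenced beside the input RNA. A Zfp gene was counted as a member when at least 1 of the 4 deposited peak lists held a peak assigned to it, by the largest exon overlap on the same strand. Zfp36, whose fingers are of another kind, was left out. By this rule 271 of the 364 Zfp genes of the annotation were members (74.5%), among 6971 of all 21866 protein-coding genes (31.9%). The members were thus chosen by their listed peaks, so that their having peaks is a description and was not tested. At the edge of the rule, 50 members had a single listed peak in all 4 lists, with scores from 72.33 to 3100, and 93 Zfp genes had none.

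Marrow cells of C57BL/6 mice aged 8 weeks were cultured for 7 days with M-CSF at 40 ng/mL to give BMDMs. Of the 4 mice, 2 were Mettl3 fl/fl Lyz2+/+ (WT) and 2 were Mettl3 fl/fl Lyz2cre/+ (KO). Both genotypes therefore carried the floxed allele of the m6A methyltransferase gene Mettl3, and Cre was driven by Lyz2, which is active in myeloid cells and need not recombine every allele. Each mouse gave an m6A IP and an input library and 1 peak list, taken below in a fixed list order: first WT-1, then WT-2, then KO-1, then KO-2. The lists held 6159 to 6684 peaks, each with a score from the authors' peak caller. They hold no read counts, so the depth is unknown, RNA levels were not measured, and a gene without a listed peak is not a gene without m6A. In such bulk RNA, fewer cells with a transcript and less of it per cell cannot be told apart. Mettl3 had no listed peak in any list, which leaves the genotype labels unchecked. Of 8 macrophage markers, Mertk had a peak in all 4 lists and Fcgr1 in WT-1 plus WT-2, and of 10 markers of other bone marrow cells Siglech had a peak in KO-1. The cell type could thus not be checked from the peaks.

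Most Zfp proteins are C2H2 zinc finger proteins. They bind DNA through an array of fingers, each a short loop held by a zinc ion between a pair of cysteines and a pair of histidines, with a conserved linker between neighbours. Many also carry an N-terminal KRAB domain, which recruits TRIM28 and the histone methyltransferase SETDB1 and is known for the silencing of retroelements. The finger array is usually coded by a single long last exon, and m6A, which favours GGAC and related DRACH sites, is known to be enriched in long internal exons, in the last exon and near stop codons.

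The sequences below are the central 300 bases of the stretches that a peak of every list shared in the coding part of the last coding exon, for the 3 members in which that stretch was longest, leaving out near-identical copies. They are shown because they let the finger-coding sequence be set beside the motif. They were read from the GRCm38.p6 reference on the plus strand, 5′ to 3′, with GGAC in capitals.
Zfp281, chr1:136626204-136626503, exon 2 of 2: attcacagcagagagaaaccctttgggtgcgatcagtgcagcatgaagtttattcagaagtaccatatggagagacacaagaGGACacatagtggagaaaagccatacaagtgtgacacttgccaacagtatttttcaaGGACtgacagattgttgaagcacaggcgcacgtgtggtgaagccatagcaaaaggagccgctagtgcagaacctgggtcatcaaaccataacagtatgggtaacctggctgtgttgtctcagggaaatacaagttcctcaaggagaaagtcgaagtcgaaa
Zfp52, chr17:21561438-21561737, exon 5 of 5: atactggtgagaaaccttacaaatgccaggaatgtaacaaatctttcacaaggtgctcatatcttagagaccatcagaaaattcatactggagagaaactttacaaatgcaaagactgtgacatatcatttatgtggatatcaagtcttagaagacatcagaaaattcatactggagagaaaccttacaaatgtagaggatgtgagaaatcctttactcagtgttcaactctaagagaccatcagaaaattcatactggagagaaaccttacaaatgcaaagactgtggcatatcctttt
Zfp639, chr3:32520057-32520356, exon 7 of 7: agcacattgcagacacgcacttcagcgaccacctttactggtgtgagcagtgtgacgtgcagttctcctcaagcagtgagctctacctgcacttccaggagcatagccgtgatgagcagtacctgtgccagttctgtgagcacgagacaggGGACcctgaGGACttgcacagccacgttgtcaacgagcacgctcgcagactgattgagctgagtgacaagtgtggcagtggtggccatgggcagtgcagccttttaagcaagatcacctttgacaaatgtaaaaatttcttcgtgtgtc

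Zfp281, a transcription factor of pluripotent cells, had 3 fingers by the pattern used here, which requires a pair of histidines. Of its 300 bases, 90 lay in the finger array, from the first to the last finger so found. After the array the printed bases code for a similar sequence that closes with a cysteine in place of the last histidine. The pattern does not count it. Its whole shared stretch of 980 bp held 4 GGAC. Zfp639 codes for 9 fingers, and all 300 bases lay in the array, with 2 GGAC here and 4 in the 958 bp of the stretch. Zfp52, a KRAB zinc finger gene with 14 fingers, held 0 GGAC in the 300 bases and 0 in the whole 958 bp, although a peak of each list covered them. It held 11 DRACH sites in the 300 bases, against 10 in Zfp281 and 7 in Zfp639. The repeat of the array can be read from a pair of neighbouring fingers of Zfp52, with the linker to the next finger in capitals.
Zfp52, chr17:21561545-21561622: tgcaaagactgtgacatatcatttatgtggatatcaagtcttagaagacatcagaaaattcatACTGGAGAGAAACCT
Zfp52, chr17:21561629-21561706: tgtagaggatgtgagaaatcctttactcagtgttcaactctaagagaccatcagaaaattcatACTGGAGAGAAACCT

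Both linkers code for TGEKP, the canonical linker of C2H2 arrays, and they hold AAACC, which is a DRACH form. Over all 267 members with a readable coding sequence, 2982 fingers were found, with a median of 11 and a maximum of 36 per protein. Of these fingers 40.5% were followed by TGEKP. In 63.7% of these 1209 linkers the bases held AAACC, which follows from the lysine codon AAA, and no codon choice for TGEKP can give GGAC. GGAC was found within the 84 bases from the start of a finger in 12.7% of the fingers, and in 9.77% of those of KRAB members against 16.2% of those of the others.

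In list order, 184, 155, 203 and 211 Zfp genes had a peak. WT-2 was the lowest and both KO lists were above both WT lists. WT BMDMs averaged 169.5 ± 20.5 genes (SD, n = 2) and KO BMDMs averaged 207 ± 5.66 (SD, n = 2), a difference of 37.5 genes with p = 0.333 in a two-sided exact permutation test, where 4 lists allow no smaller value. All other genes with a peak numbered 3980, 4191, 3973 and 4224 in list order, a difference of 13 (two-sided exact permutation test, p = 1). The Zfp genes accordingly made up 4.42% and 3.57% of the genes with a peak in the WT lists and 4.86% and 4.76% in the KO lists. Without WT-2 the difference was 23 genes, and without WT-1 it was 52. The highest number in the names of the peaks, 62325, 35683, 74162 and 85462 in list order, ranked the lists in the same order as their Zfp genes, and its part in the difference was not tested.

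The difference was smaller among high-scored peaks. In the top 50% of each list by score, 116, 102, 117 and 118 Zfp genes had a peak in list order, a difference of 8.5 (two-sided exact permutation test, p = 0.333). The score percentile, the share of the peaks of a list with a score at or below that of a peak, had a median over member peaks of 50.9 and 53.4 in the WT lists and 48.2 and 42.9 in the KO lists. For peaks of other genes it was between 49.9 and 50.7. A score of 3100 was shared by 9.92%, 12.5%, 15.6% and 18.7% of the peaks in list order, all of which have a percentile of at least 99.1, so their order among each other is unknown. Most members recurred: 104 (38.4%) had a peak in all 4 lists, against 30.5% of all genes with a peak, 62 in 3 lists, 46 in 2 lists and 59 in 1 list. Among genes with at least 1000 coding bases in the exon with the stop codon, the order was the reverse. There 35.7% of the members and 45.7% of the other genes had a peak in all 4 lists.

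WT-2 stood apart from the other 3 lists. In 37 members (13.7%) a peak was listed everywhere but in WT-2, where 5.84% of all genes showed this pattern. In turn 12 members (4.43%) lacked a peak in WT-1 alone, against 4.86% of all genes. The highest-scored peaks of the 37 members had a median score percentile of 57.4 in WT-1, 56.4 in KO-1 and 48.3 in KO-2. For members present in all 4 lists these were 64.5, 70.6 and 67.5. The coding sequence of the 37 members had a median GC content of 43.1%, against 45.6% for members in all 4 lists. Other genes that lacked a peak in WT-2 alone had 50.9%, against 51.3% for those in all 4 lists. Of 4 equal classes of genes by GC content, WT-2 held the lowest share of the members in 3, with 53.3% in class 1, the lowest in GC, 56.3% in class 2 and 61.2% in class 4. In class 4 it held 62.2% of the other genes, the highest of the 4 lists, and in class 1 62.4%, the lowest.

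**Figure D1:**
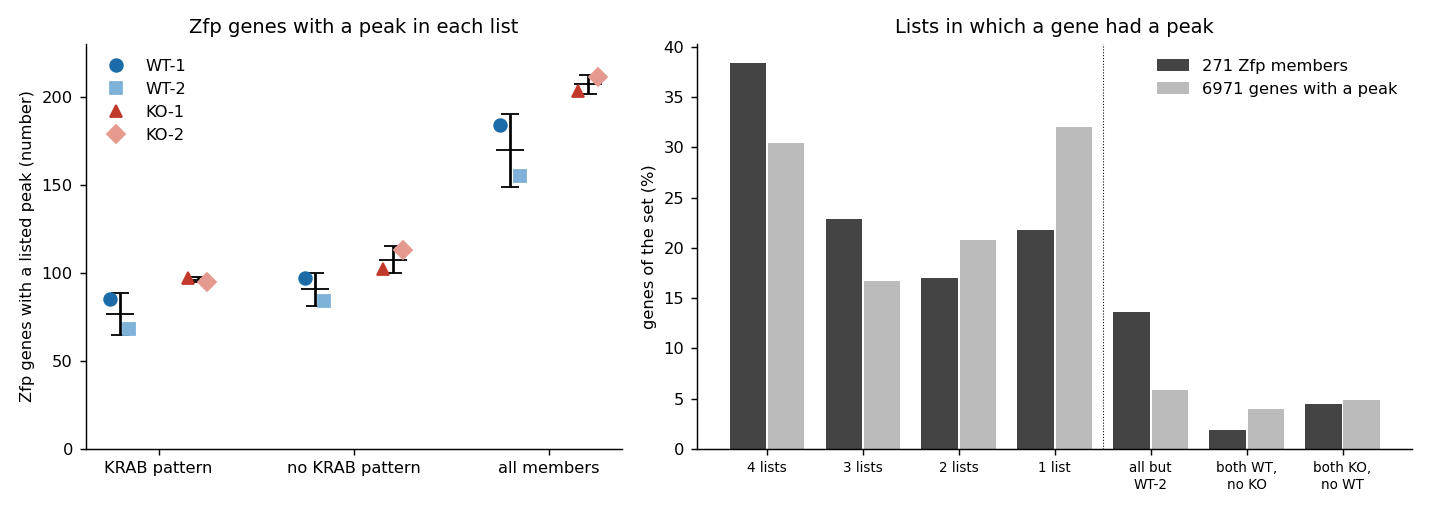
Left, number of Zfp genes with a listed peak in each list, for members with and without the KRAB pattern and for all 271 members, with the mean and SD of the 2 lists of a genotype; right, the percentage of the 271 members and of all 6971 genes with a peak that were listed in 4, 3, 2 or 1 lists and in 3 of the patterns. The KO lists held 203 and 211 members and the WT lists 184 and 155, and 13.7% of the members lacked a peak in WT-2 alone.

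The KRAB domain divides the family by function. A consensus of the KRAB A box was found near the N-terminus of 130 members and not in 137. The consensus misses some known KRAB genes, Zfp445 and Zfp708 among them, so the second class still holds such genes. KRAB-pattern members with a peak numbered 85, 68, 97 and 95 in list order. Their WT mean was 76.5 ± 12.02 (SD, n = 2) and their KO mean 96 ± 1.41 (SD, n = 2; two-sided exact permutation test, p = 0.333). Members without it numbered 97, 84, 102 and 113, with means of 90.5 ± 9.19 and 107.5 ± 7.78. In each class WT-2 was the lowest list. A peak in all 4 lists was found in 32.3% of the KRAB-pattern members and in 43.8% of the others.

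The question behind the placement of the peaks was how far they followed the unusual exon structure of these genes. The last coding exon, the exon with the stop codon, had a median of 1367 coding bases in members and 180 in other genes with a peak. It held at least 1000 coding bases in 199 members (73.4%) and in 687 other genes (10.3%), called long below, and was the last exon of the transcript in 266 members. The midpoint of the peak lay in the coding part of this exon for 51.3%, 49.4%, 51.1% and 48.9% of the placed member peaks in list order. The WT mean of 50.3 ± 1.37% (SD, n = 2) and the KO mean of 50.02 ± 1.55% (SD, n = 2) differed by less than the spread between lists (two-sided exact permutation test, p = 0.667). For peaks of other genes the share was 17.95% to 19.5%.

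Exon length differed between the sets. In long last coding exons the share was 61.5%, 65.8%, 66.7% and 61.1% for members and 61.5% to 62.5% for the other genes, and as a mean of the 4 lists it was 63.8 ± 2.89% (SD, n = 4) and 62.1 ± 0.481% (SD, n = 4). In the 72 members with a shorter exon it was 18.8 ± 3.63% (SD, n = 4), and in the 6013 other genes with a shorter exon 11.1 ± 0.413% (SD, n = 4). These exons differed in length too, with a median of 513 coding bases in members and 162 in other genes. At least 1 peak was placed in the last coding exon in 211 members, and 34 had peaks in the 3′-UTR and none in the coding parts. The 3′-UTR held 31.8% of the member peaks as a mean of the 4 lists and 46.1% of the peaks of other genes, but among genes with a long last coding exon the order was the reverse, with 30.2% for members and 22.4% for other genes.

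KRAB-pattern members had nearly all of their coding peaks in the last exon. It held 67.5%, 67.1%, 68.9% and 63.9% of their peaks in list order, and the upstream coding exons held 1.75%, 1.18%, 0.758% and 0%. The last value was 0 of 133 peaks, with a Wilson 95% upper bound of 2.81%. In members without the pattern the upstream exons held 23.3% to 31.1% and the last coding exon 37.3% to 39.4%. Peak width and exon length are given beside this, since their part was not tested. All listed peaks were at least 300 bp wide, and 94.7% to 96.3% of the peaks of all members lay within 1 exon. Of the 398 coding parts of upstream exons of KRAB-pattern members, only 5 (1.26%) were 300 bp or longer. In members without the pattern it was 13.4%, and in other genes 5.61%. Upstream coding exons held 31.5% of the peaks of other genes as a mean of the 4 lists.

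**Figure D2:**
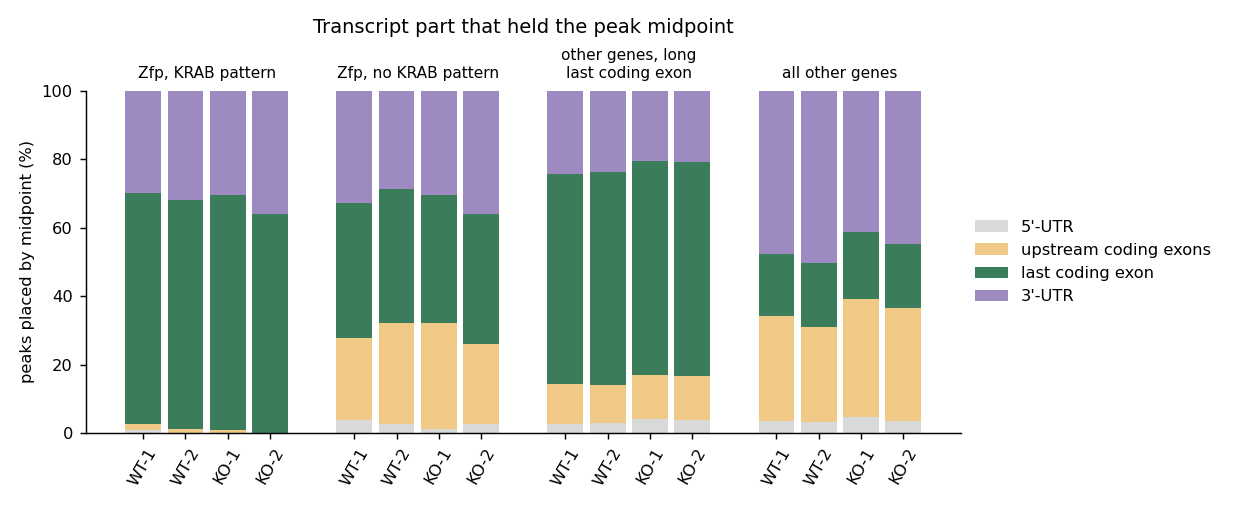
Percentage of peaks whose midpoint lay in each part of the transcript (longest coding transcript), in each of the 4 lists, for Zfp members with and without the KRAB pattern, other genes with at least 1000 coding bases in the last coding exon, and all other genes with a peak. The last coding exon held 63.9% to 68.9% of the peaks of KRAB-pattern members, 37.3% to 39.4% of those of members without the pattern and 17.95% to 19.5% of those of all other genes.

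Within the long exons the peaks covered a smaller part of Zfp genes than of other genes. The bases of the exon under a peak were 24.7%, 18.6%, 31.1% and 32.3% in members and 35.4%, 36.9%, 41.8% and 45.3% in other genes with a long exon, in list order. In both sets both KO lists covered more than both WT lists. The covered part also had another shape along the exon, with 188 members and 611 other genes long enough to be read at 1000 nt. From the start of the exon, coverage in members rose to 31.7%, 20.9%, 39.9% and 39.3% in the third 100 bases, at 200 to 300 nt, and at 1000 to 1100 nt it was 22.7%, 18.2%, 26.9% and 24.7%. In the other genes it was 27.9%, 31.8%, 34.7% and 37.6% at 200 to 300 nt and 36.8%, 38.3%, 43.2% and 46.4% at 1000 to 1100 nt. Coverage in members was thus lower at 1000 to 1100 nt than at 200 to 300 nt in each list, least so in WT-2, and in the others it was higher. The fall did not run on to the stop codon: in members coverage at 500 to 600 nt before it was 21.6%, 16.1%, 24.3% and 22.3%, and in the last 100 coding bases it was 25.7%, 21.4%, 28.6% and 29.9%. In the other genes it was 36.2% to 46.9% in the last 100 coding bases.

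**Figure D3:**
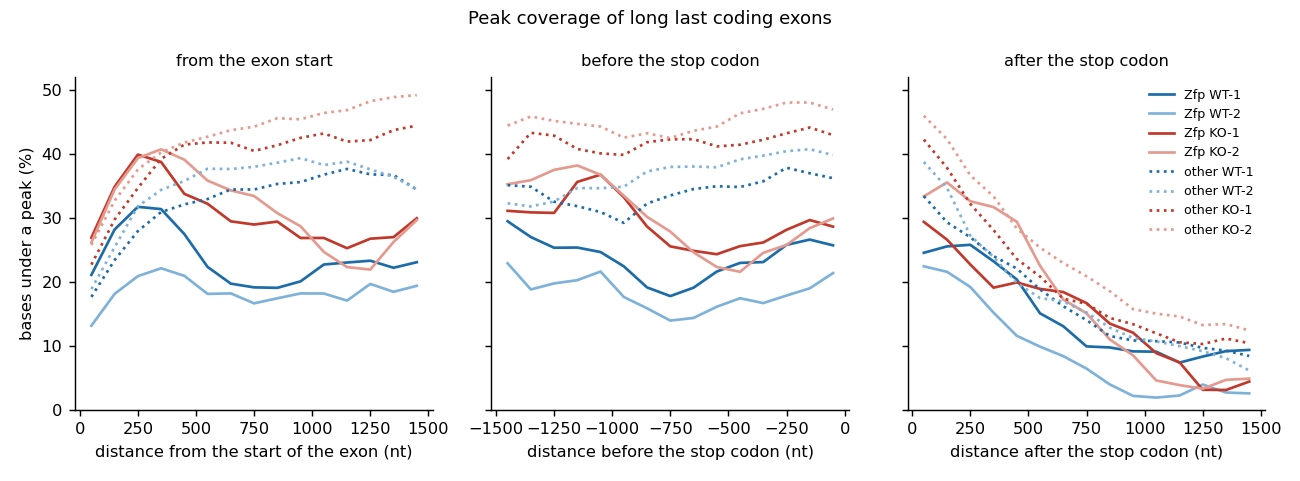
Percentage of bases under a peak in steps of 100 nt, from the start of the last coding exon, before the stop codon and after it, for 199 Zfp members (solid lines) and 687 other genes (dotted lines) with at least 1000 coding bases in that exon, in each list. In members the coverage at 200 to 300 nt from the exon start was above that at 1000 to 1100 nt in each list, and in other genes it was below.

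The finger array itself was covered less than the rest of the exon. Over 233 members, peaks covered 21.01% of the array bases and 33.5% of the other coding bases of the last coding exon in WT-1. In WT-2 they covered 16.1% and 24.7%, in KO-1 27.4% and 36.8%, and in KO-2 29.9% and 38.1%. The array was the lower in each list, with ratios of 0.628, 0.653, 0.744 and 0.786. The ratio was below 1 in each list also in KRAB-pattern members (0.637 to 0.805) and in members without the pattern (0.533 to 0.902). The array also held fewer motifs, whether under a peak or not: GGAC occurred 1.54 times per kb in the array bases and 3.32 times per kb in the other coding bases, and DRACH 20.1 and 25.9 times. Whether the coverage followed the motif was not tested.

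GGAC was denser under the peaks than beside them. In the last coding exons of members with a peak there, GGAC occurred 2.65, 2.85, 2.70 and 2.81 times per kb under the peaks in list order. In the bases of the same exons outside every listed peak it occurred 1.63, 2.001, 1.71 and 1.71 times per kb. The density was higher under the peaks in each list, by ratios of 1.62, 1.42, 1.58 and 1.64, and for DRACH by 1.22 to 1.26. This was not particular to GGAC. In list order the ratios for TGAC were 1.48, 1.63, 1.38 and 1.36. For GAAC they were 1.25 to 1.41, for AGAC 1.17 to 1.36 and for AAAC 1.01 to 1.10. In members without the KRAB pattern they were 1.59 to 2.16 for TGAC and 1.25 to 1.69 for GGAC. In WT-2 the ratio for KRAB-pattern members was 1.07, against 1.48 to 1.86 in the other 3 lists. In other genes with a long last coding exon the ratios were 1.26 to 1.402, at densities of 4.86 to 5.12 per kb under the peaks. The limit on exon length was set for these other genes only and not for the members.

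Zfp peaks lacked GGAC more often than peaks of other genes. GGAC was also sparser outside the peaks. It occurred there 1.63 to 2.001 times per kb in the last coding exons of members. In long last coding exons of other genes it occurred 3.46 to 3.97 times per kb. The part of this in the share of peaks with GGAC was not tested. Of the member peaks placed in the last coding exon, 74.1%, 65.2%, 67.5% and 72.3% held at least 1 GGAC in the 4 lists. Of the peaks of other genes in long exons it was 91.0%, 94.0%, 91.4% and 93.3%. Without a limit on exon length, as for the members, it was 91.4% to 93.3% of the peaks of other genes. The Wilson 95% intervals cover counting error only and treat each peak as independent. Peaks of the same gene or of near-identical copies need not be independent, so the intervals give no test between the sets. The upper bound for members was at most 80.7%, in WT-1. The lower bound for other genes in long exons was at least 88.0%, also in WT-1. KRAB-pattern members were the lowest, with 66.2%, 54.4%, 62.6% and 69.4%. Peak width is given beside this, since its part was not tested: member peaks had a median of 459, 426, 512.5 and 536 bp in the 4 lists against 488, 504, 509 and 552 bp for peaks of other genes, and the gap was largest in WT-2.

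**Figure D4:**
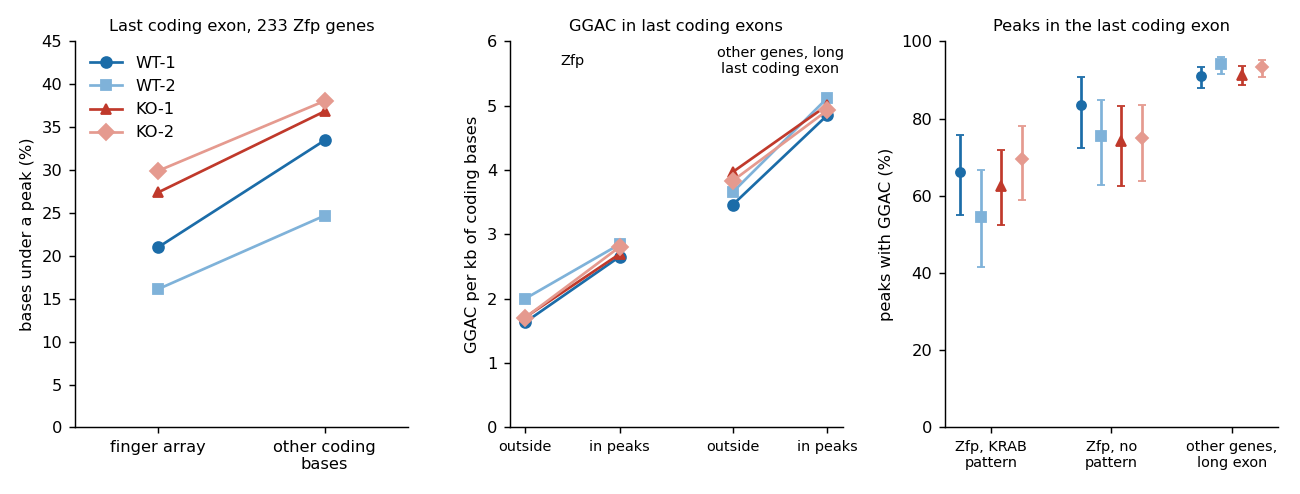
Left, percentage of bases under a peak in the finger array and in the other coding bases of the last coding exon of 233 Zfp members; middle, GGAC per kb of last coding exon outside and under the peaks, for members and for other genes with a long exon; right, percentage of peaks in the last coding exon with at least 1 GGAC, with Wilson 95% intervals. The array was covered less in each list, and GGAC was denser under the peaks. Of the peaks of KRAB-pattern members 54.4% to 69.4% held GGAC, against 91.0% to 94.0% for other genes with a long exon.

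Of all Zfp genes 74.5% had a peak, and 38.4% of the members had one in all 4 lists. The role lists here and below are short, and their counts were not tested against these shares. Among Zfp genes known to control retroelements and imprints, 4 of 6 had a peak and 3 had one in all 4 lists. Zfp445, which protects imprints, had 2, 3, 1 and 1 peaks in list order. The peaks covered 54.6%, 57.4%, 95.8% and 45.5% of the 2075 coding bases of its exon 7, all 4 lists shared 634 bp there, and the highest-scored peak had the shared score of 3100 in each list. Zfp809, which silences murine leukaemia virus, had 2, 1, 3 and 2 peaks, with percentiles of 34.2 and 64.6 in the WT lists and the shared score of 3100 in the KO lists, where more peaks had that score. Only 164 of its coding bases are in the last coding exon of the transcript used, and these peaks lay before it, in KO-1 and KO-2 with their midpoints outside the exons of that transcript. Both KO lists also held a peak over the last coding exon and the WT lists did not. Zfp568, a repressor needed in early development, had 1, 1, 4 and 2 peaks with percentiles of 33.6 to 55.0, and no base of its last coding exon was shared by all 4 lists. Zfp708 had a 3′-UTR peak in each list but WT-2. Zfp57 and Zfp932 had no listed peak.

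Among regulators of immune cells, Zfp91 and Zfp318 had a peak in all 4 lists, Zfp366 in the WT lists only, and Zfp335 and Zfp683 in none. Zfp318, which controls IgD expression in B cells, had the most listed peaks of all members, 6, 4, 4 and 4 in the 4 lists, of which 8 lay in upstream coding exons and 9 in the last coding exon. Its exon 10 was covered to 47.6%, 26.1%, 67.5% and 73.9%, with the KO lists above the WT lists. Zfp91, a ubiquitin ligase of NF-kappaB signalling, had its 511 coding bases of exon 11 covered in full in each list, by peaks that reached on into the 3′-UTR. Zfp366, a regulator of dendritic cells, had a peak at chr13:99246285-99246653 in WT-1, of which 287 bp were in the last coding exon, and a separate peak at chr13:99246663-99246998 in the 3′-UTR in WT-2. The peaks shared 0 bases.

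All 9 transcription and chromatin factors on the list had a peak, and 6 of them in all 4 lists. Zfp281, of which a stretch is printed above, had 1 peak in each WT list, of 2992 and 2809 bp, and 2 peaks in each KO list. In WT-1 and WT-2 these covered 79.0% and 84.7% of its 2682 coding bases, and in KO-1 and KO-2 60.4% and 51.9%, so that here the WT lists were above the KO lists. Zfp148, Zfp217, Zfp263, Zfp462 and Zfp592 were also in all 4 lists. Zfp148 had the shared score of 3100 in each list but WT-2, where its percentile was 84.6, and Zfp592, which acts in a chromatin complex with Zfp687, had percentiles of 50.8 to 73.7. Zfp687 was in each list but WT-2 with percentiles of 15.1 to 18.3, Zfp384 in WT-1 and KO-1, and Zfp143 in WT-2 only.

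Of the members that act on RNA, the ribosome or the spindle, Zfp638 and Zfp106 were in all 4 lists. Zfp638, an RNA-binding protein that also silences retroviral DNA, had 2, 3, 5 and 4 peaks, 12 of them in upstream coding exons and 0 in the last coding exon, which has only 66 coding bases. Zfp106, an RNA-binding protein of motor neurons, had 1, 1, 5 and 2 peaks, and the WT-1 and WT-2 peaks lay at different places. Zfp622, which matures the large ribosomal subunit, was in each list but WT-2, Zfp326 in WT-1 and KO-2 and Zfp346 in WT-2 and KO-1. The spindle protein gene Zfp207 had no listed peak. Their last coding exons held 57 to 342 coding bases, far below the family median.

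The 10 members named for the most peaks were Zfp318, Zfp609, Zfp646, Zfp292, Zfp407, Zfp516, Zfp451, Zfp638, Zfp608 and Zfp629, with 13 to 18 peaks over the 4 lists. Zfp592 also had 13, as many as Zfp608 and Zfp629, which were taken because their peaks spanned more bases. Only Zfp318, Zfp292, Zfp407 and Zfp629 have more than 1000 coding bases in the last coding exon, and none of the 10 carried the KRAB pattern. Zfp292 had 14 peaks, all placed in its exon 8 with 7083 coding bases, the longest among members, of which 67.2%, 41.7%, 86.6% and 93.4% were covered in list order. WT-2 was the lowest and both KO lists were above both WT lists, and 2637 bases in total were covered in all 4. Zfp646, with 27 fingers, had 15 of its 17 peaks in upstream coding exons, and so had Zfp609 13 of 17 and Zfp608 13 of 13. Zfp516, an activator of brown fat genes, had 9 of 14 peaks in upstream coding exons. Of the 14 peaks of Zfp451, a SUMO ligase, 9 fell outside the exons of the transcript used. The members with the most fingers ranged widely in peaks. Of 5 of them, Zfp142 (36 fingers) had 8 peaks and Zfp462 (33) 11, but Zfp619 (33) and Zfp236 (30) had 2 each and Zfp521 (27, as many as Zfp646) had 1.

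Peaks in WT-1 plus WT-2 with none in KO BMDMs were listed for 5 members (1.85%), where the background over all genes with a peak was 3.97%. They were Zfp111, Zfp366, Zfp59, Zfp618 and Zfp72. Among genes with a long last coding exon, 4 of 199 members and 13 of 687 other genes were so listed. Only in Zfp111 and Zfp72 did the peaks of WT-1 and WT-2 share bases, 590 and 728 of them. Zfp72 had 2 peaks in each WT list, all in the last coding exon, with percentiles of the highest-scored peak of 60.3 and 79.8. In Zfp366, Zfp59 and Zfp618 they shared 0 bases, so the same gene and not the same site was listed. Over all 277 genes so listed, the WT peaks shared bases in 79.1%. The mean score percentile of the 5 members had a median of 70.1, against 38.9 over those 277 genes. With WT-1 left out 12 members met the rule, with WT-2 left out 15, with KO-1 left out 15 and with KO-2 left out 8, since a single list then stood for a genotype.

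The reverse, peaks in KO-1 plus KO-2 with none in WT BMDMs, was found for 12 members (4.43%), against a background of 4.89%. They were Zfp101, Zfp113, Zfp128, Zfp2, Zfp236, Zfp286, Zfp595, Zfp775, Zfp78, Zfp870, Zfp943 and Zfp959. Among genes with a long last coding exon, 11 of 199 members and 37 of 687 other genes were so listed. In 10 of the 12 members the KO peaks shared bases, from 202 bp in Zfp775 to 516 bp in Zfp959, and in Zfp128 and Zfp595 they did not. This share of 83.3% was near the 86.2% of all 341 genes so listed. Their mean score percentile ran from 10.54 in Zfp236 to 53.7 in Zfp870, with a median of 27.6, against 36.3 over all 341 genes so listed and 63.3 for members in all 4 lists. Zfp2 had a peak at chr11:50899930-50900280 in KO-1 with a percentile of 67.1, and at chr11:50899930-50900336 in KO-2 with a percentile of 8.29. Of the 12, 0 met the rule in the top 50% of peaks by score, where 7 other members did, and 7 of them met it with an equal number of top-scored peaks per list. With WT-1 left out 49 members met the rule, with WT-2 left out 24, with KO-1 left out 35 and with KO-2 left out 31.

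**Figure D5:**
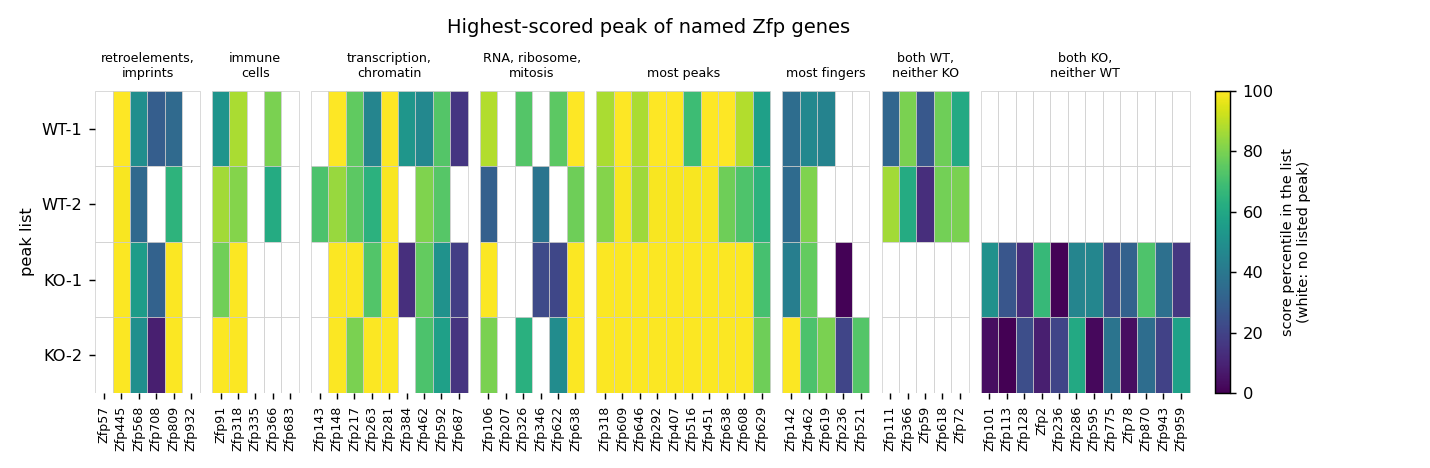
Score percentile within its list of the highest-scored peak of each named Zfp gene, in each list, with genes grouped by role, by number of peaks, by number of fingers and by presence in the lists of 1 genotype. White stands for no listed peak, peaks with the shared score of 3100 have percentiles of at least 99.1, and the 12 genes listed in both KO lists alone had mean percentiles of 10.54 to 53.7.

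Many Zfp genes arose by tandem duplication, and reads of near-identical copies cannot be told apart by position alone. Of the 1189 member peaks, 114 (9.59%) had at least 95% identity over at least 100 bp to a transcript of another gene, in 53 members, of which 37 carried the KRAB pattern. Such peaks numbered 32, 17, 31 and 34 in list order. Of the genes listed for 1 genotype only, 1 in each direction was among them. Without these peaks the difference between KO and WT BMDMs was 35 genes, and the share of peaks in the last coding exon was 48.1%. The matched transcripts were not all of Zfp genes. For Zfp553 they included those of Araf, Dnmt3a and Tbk1, for Zfp617 those of Cenpa and Pabpc1, and for Zfp839 those of Il7r and Wdr59. Some other members matched only genes outside the protein-coding set. A match by these limits thus need not be to a duplicated Zfp gene.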

How the data were processed

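MeRIP-Seq was run on BMDMs of 4 mice, 2 of each genotype, in 8 libraries (IP or input). The authors deposited 1 peak list per mouse whose values are scores of the peak caller. Per the submitters' processing notes, cutadapt 1.9.3, HISAT2 2.0.4 and mm10 were used, and the peak caller and its settings are not given in the sources used here. The numbers in peak names run far past the number of peaks listed, so the lists hold a part of the numbered peaks, which can affect which weak peaks appear. The deposited scores were used only to rank peaks within a list. The lists give no counts, so depth and its precision are unknown.

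Peaks were assigned to protein-coding genes of GENCODE M21 (GRCm38) by the largest same-strand exon overlap of at least 1 bp, and 94.8% to 96.2% of the peaks of a list were assigned. Each peak's midpoint was located in the longest coding transcript of its gene. Fingers were found in the translated sequence as C-x(2,4)-C-x(12)-H-x(3,5)-H, and the KRAB consensus within the first 250 residues. The consensus was chosen after its matches were counted. Sequences were printed from members outside chromosome 18. GGAC and DRACH were counted on the transcript strand. Copies were found with megablast of BLAST+ 2.17.0.

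Lists were compared by the two-sided exact permutation test over 6 labellings. No p-value below 0.333 is possible. The members, gene lists and tests were chosen with earlier results of these data known. Genes were named by role lists, as the 10 members in all 4 lists with the most peaks (ties by summed peak bases), as all members listed for 1 genotype only, and as the 5 with the most fingers. The functions were tested on simulated data. As alternatives, results were recomputed for the top 50% of peaks by score, equal numbers of peaks, other transcripts, motifs, finger patterns and assignment, peaks without copies, a replicate block and each list left out. Python 3.11.15, scipy 1.17.1, pysam 0.24.0, samtools 1.23.1 and matplotlib 3.10.9 were used.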

Additional observations from a re-analysis of the deposited data

How the results depend on the processing

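Of 55 alternative values for the 7 main results, 35 were counted as the same. For differences between KO and WT lists this meant the same sign at any size, and no p-value below 0.333 was possible. For counts it meant staying within a set limit, and for the other results within the spread between lists. By these limits 16 values moved, though a moved value could keep its direction. Another 4 changed sign, each for the KO minus WT difference in the share of member peaks in the last coding exon. That difference of -0.303 percentage points became 0.928 for the top 50% of peaks by score and 1.352 with every base counted, and it ran from -1.401 to 0.794 with each list left out. The share itself was 51.5% for the top 50% of peaks by score and 48.1% without peaks with near-identical copies. The KO lists held more member genes under each alternative, by 8.5 for the top 50% of peaks by score and by 23 to 52 with each list left out. Members listed for KO alone numbered 7 for the top 50% of peaks by score and 7 with equal numbers of peaks, and 24 to 49 with each list left out. Those listed for WT alone numbered 8 to 15 with each list left out, which loosens the rule to 1 list. The mean ratio of GGAC under peaks to outside, 1.57, was 1.24 for DRACH and 1.75 in the central 200 bp, and 1.42 to 1.59 with each list left out. The ratio of coverage in finger arrays to other coding bases stayed between 0.636 and 0.725. The cause of these changes was not tested. The labels do not tie the shared replicate numbers to a litter or a batch. With the replicate block the difference of 37.5 genes had p = 0.5 (exact permutation within pairs), the smallest value that this block allows. The calls for WT alone or KO alone do not depend on the block. Without counts, the lists cannot show whether a missing peak reflects depth or RNA level.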

Other observations

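The corepressor genes of KRAB zinc finger proteins were read from a separate list of 17 genes. Of these 9 had a peak, where 31.9% of all protein-coding genes had one. In WT alone or KO alone 0 of the 9 were listed, beside backgrounds of 3.97% and 4.89%, so that the 0 is no result about these genes. Setdb1, Atf7ip, Mphosph8, Fam208a, Morc2a and Dnmt3a had a peak in all 4 lists, of which Setdb1 is the H3K9 methyltransferase and Atf7ip its partner, and Mphosph8, Fam208a and Morc2a belong to the HUSH silencing pathway. Atf7ip had 3, 2, 2 and 3 peaks in list order (WT-1 first, KO-2 last), and Fam208a had 4, 2, 4 and 4. Trim28, the protein that KRAB domains bind, had no listed peak, nor did Cbx3, Pphln1, Chd3, Hdac1, Hdac2, Dnmt1 or Uhrf1.

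Other C2H2 families differed in how many genes were listed. Of the Zbtb genes, whose proteins carry a BTB domain in place of KRAB, 31 of 35 had a peak and 21 were in all 4 lists. Their last coding exon held a median of 1347 coding bases and 48.2 ± 5.50% (SD over the 4 lists) of their peaks. Of the Zkscan and Zscan genes 17 of 21 had a peak and 6 were in all 4 lists. Of the Klf genes, with a median of 182 coding bases in that exon, 9 of 17 had a peak. As a mean of the lists 65.9 ± 13.7% (SD over the 4 lists) of their peaks lay in the 3′-UTR. This share ran from 50% to 83.3% and rested on only 11 or 12 placed peaks per list. These counts were not tested against those of the Zfp genes.

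Zfp genes lie in clusters, and their listing varied between chromosomes. Chromosome 7 held 88 Zfp genes, of which 67 had a peak, and chromosome 17 held 41, of which 36 had one. On chromosome 13, 27 of 31 had a peak but only 5 were in all 4 lists, whereas on chromosome 4 15 of 30 had a peak and 9 were in all 4 lists.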
